A study of Mus musculus with 20 samples.

Results

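Macrophage genes were followed through 12 RNA-seq libraries and 4 ATAC-seq peak lists of mouse gut mesenchyme, the connective tissue of the gut wall. The members were 10 genes named in a list, *Ptprc*, *Cd68*, *C1qa*, *C1qb*, *C1qc*, *Csf1r*, *Lyz2*, *Cx3cr1*, *Mrc1* and *Spi1*, and all 10 were found among the 43280 gene symbols of the count files. The list was chosen from earlier results on these same libraries, so the members' levels, fold changes and calls are a description, and no p-value is printed for a member. In adult small intestine all 10 genes were far higher in *Eed* KO cells than in control cells, by 12.2-fold for *Cx3cr1* to 60.9-fold for *C1qc*. In the embryo they were close to the detection limit, *Lyz2* excepted.

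The study compared cells with and without Eed, a core subunit of Polycomb repressive complex PRC2, which deposits H3K27me3 and keeps genes silent. Embryonic cells came from intestine and stomach at E13.5. The strain label of the embryos is C57BL/6, while the study's methods describe mixed strain backgrounds for its mice. Control embryos were Bapx1-cre;Rosa26mTmG and *Eed* KO embryos were Eedfl/fl;Bapx1-cre;Rosa26mTmG, with 2 libraries for each organ and genotype. Adult cells came from the small intestine of mice of about 10 weeks. Adult control mice, labelled WT, were PdgfrβCre-ERT2/+;Rosa26mTmG, and adult *Eed* KO mice, labelled EED-KO, were PdgfrβCre-ERT2/+;Eedfl/fl;Rosa26mTmG, again with 2 libraries each. All adult mice took tamoxifen on 5 consecutive days, and 2 days of rest followed. Controls therefore carried the Cre driver and the mTmG reporter too, and differed from *Eed* KO in the floxed alleles. The reporter turns from Tomato to GFP in cells in which Cre has acted and in all their descendants, so the sorted GFP+ cells were defined by the activity of the *Bapx1* (*Nkx3-2*) or *Pdgfrb* driver at the time of recombination and not by a surface marker. Before the adult sort the villi had been scraped off and the epithelium shaken off in EDTA. The study calls its libraries biological replicates, but the labels do not tie each library to an animal, so the p-values below measure the spread between these libraries.

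Macrophages are tissue-resident phagocytes. In the gut wall they clear microbes and dying cells, arise from embryonic precursors and from blood monocytes, and depend on signalling through the receptor encoded by *Csf1r*. The transcription factor PU.1, encoded by *Spi1*, switches on much of their program, *Csf1r* included. The list spans several layers of that program. *Ptprc* encodes CD45, the phosphatase on the surface of nearly all leukocytes. *Cx3cr1* encodes the fractalkine receptor, *Mrc1* the mannose receptor CD206, *Cd68* a glycoprotein of late endosomes and lysosomes, and *Lyz2* the lysozyme of myeloid cells. *C1qa*, *C1qb* and *C1qc* encode the A, B and C chains that assemble into C1q, the recognition part of the first complement component.

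In the mm10 annotation used for counting (GENCODE vM4), the 3 C1q genes lay side by side on the minus strand of chromosome 4, *C1qb* at chr4:136880129-136886187, *C1qc* at chr4:136889804-136893065 and *C1qa* at chr4:136895917-136898803. *Spi1* lay at chr2:91082390-91115756 and *Mrc1* at chr2:14229392-14332057, both on the plus strand. On the minus strand lay *Ptprc* at chr1:138062861-138175708, *Cd68* at chr11:69664213-69666153, *Lyz2* at chr10:117277334-117282274 and *Cx3cr1* at chr9:119901616-120068283. The counts cover the merged exons of each gene. The *Cx3cr1* span overlapped other annotated genes, and *Lyz2* has a near-identical neighbour, *Lyz1*, so counts of these genes are uncertain where reads could be shared.

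Promoter sequences are shown for the members with a peak list entry near the start and a RefSeq promoter (GRCm38.p6), since the chromatin data bear on these starts. Each line gives the 250 bases before the start, 5′ to 3′ on the gene's strand. Capitals mark every GAGGAA or its reverse complement TTCCTC, 1 form of the motif that PU.1 binds.
C1qb, chr4:136886201-136886450, minus strand: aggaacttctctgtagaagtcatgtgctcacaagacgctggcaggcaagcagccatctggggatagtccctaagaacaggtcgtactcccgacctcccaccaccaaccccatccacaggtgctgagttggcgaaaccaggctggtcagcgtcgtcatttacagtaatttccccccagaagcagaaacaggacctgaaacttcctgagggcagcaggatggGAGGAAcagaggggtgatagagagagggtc
C1qc, chr4:136892915-136893164, minus strand: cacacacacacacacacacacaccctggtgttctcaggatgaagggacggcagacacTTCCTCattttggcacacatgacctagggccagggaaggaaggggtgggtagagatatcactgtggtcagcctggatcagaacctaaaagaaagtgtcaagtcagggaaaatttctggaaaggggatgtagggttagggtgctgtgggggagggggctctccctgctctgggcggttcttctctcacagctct
Cd68, chr11:69666171-69666420, minus strand: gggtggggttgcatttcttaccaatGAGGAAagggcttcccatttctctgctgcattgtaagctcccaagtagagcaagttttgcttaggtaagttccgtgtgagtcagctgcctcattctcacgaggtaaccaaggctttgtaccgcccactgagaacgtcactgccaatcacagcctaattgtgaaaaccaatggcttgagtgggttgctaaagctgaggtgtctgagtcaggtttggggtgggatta
Mrc1, chr2:14229164-14229413, plus strand: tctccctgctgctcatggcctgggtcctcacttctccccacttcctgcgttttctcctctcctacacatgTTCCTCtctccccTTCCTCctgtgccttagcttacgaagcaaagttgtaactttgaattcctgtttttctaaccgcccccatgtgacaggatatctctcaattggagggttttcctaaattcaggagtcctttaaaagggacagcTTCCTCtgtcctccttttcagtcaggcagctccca
Lyz2, chr10:117282273-117282522, minus strand: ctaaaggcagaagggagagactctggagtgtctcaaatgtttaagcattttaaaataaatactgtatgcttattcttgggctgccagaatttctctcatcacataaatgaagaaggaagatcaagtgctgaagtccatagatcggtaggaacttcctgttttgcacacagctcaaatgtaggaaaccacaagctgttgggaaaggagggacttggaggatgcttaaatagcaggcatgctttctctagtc
Of the 8 RefSeq promoters of members, which belonged to 7 genes, 5 from 5 genes held the motif within the 300 bases from 250 before to 50 after the start, *Cd68* with a second match after its start. Of all 32851 promoters of that length 9289 held it, or 28.3%. *Mrc1* held 3 matches, *Lyz2* and *Cx3cr1* held none, and *Ptprc* held 1 in 1 of its 2 promoters. A match describes the letters alone, and other forms of the motif were not searched. Promoters of *C1qa*, *Csf1r* and *Spi1* were not analysed here.

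The embryonic libraries held 30236159 to 39606157 counts (median 36232258) and the adult libraries 11404712 to 15903642 (median 11824470), and levels are given as CPM, a gene's counts over the library's total after TMM scaling. A gene with no count could lie at up to 0.0757 to 0.0992 CPM in embryonic and 0.189 to 0.263 CPM in adult libraries. These limits allow for 3 counts over the plain library total, without TMM, and cover counting error only. Libraries of the same group differed by more than counting noise, with a chi-square per degree of freedom of 19.9 to 89.0. *Eed* itself fell in both embryonic organs, from 38.1 and 40.1 CPM to 10.7 and 8.59 CPM in intestine (log2 fold change −2.02, SE 0.21, adjusted p = 0.0046) and from 40.1 and 41.5 CPM to 11.5 and 7.40 CPM in stomach (−2.11, SE 0.21, adjusted p = 0.0017, edgeR quasi-likelihood test, Benjamini-Hochberg over 16218 genes). In the adult, *Eed* was at 29.7 and 33.4 CPM in control and at 25.7 and 25.0 CPM in *Eed* KO libraries, which was not a called change (−0.32, SE 0.21, adjusted p = 0.32 by the same edgeR test over 15039 genes). In these whole-gene RNA counts the adult labels were thus not backed by a called fall of *Eed*. The study also reports a separate measure of *Eed* deletion efficiency in pericryptal cells, which is not part of these counts. Adult groups are named here by their labels. Spike-in transcripts took 4871 to 14932 counts in the embryonic *Eed* KO libraries and 26227 to 37590 in their controls, so scaling by spike-in raised the median log2 fold change of all genes to 1.85 in intestine and 2.39 in stomach. The adult shift was −0.42.

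The plot of TPM (counts per exon length, scaled to a common total) in all 12 libraries shows 3 tiers for the members. The adult *Eed* KO libraries were highest for every member, the adult controls were next, and the 8 embryonic libraries were lowest. For every member the adult *Eed* KO libraries lay above the adult controls, and the adult controls above every embryonic library, with no overlap. Adult and embryonic libraries also differed in library kit, strandedness, sorting driver and depth, and the age of the tissue cannot be told apart from these.

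**Figure D1:**
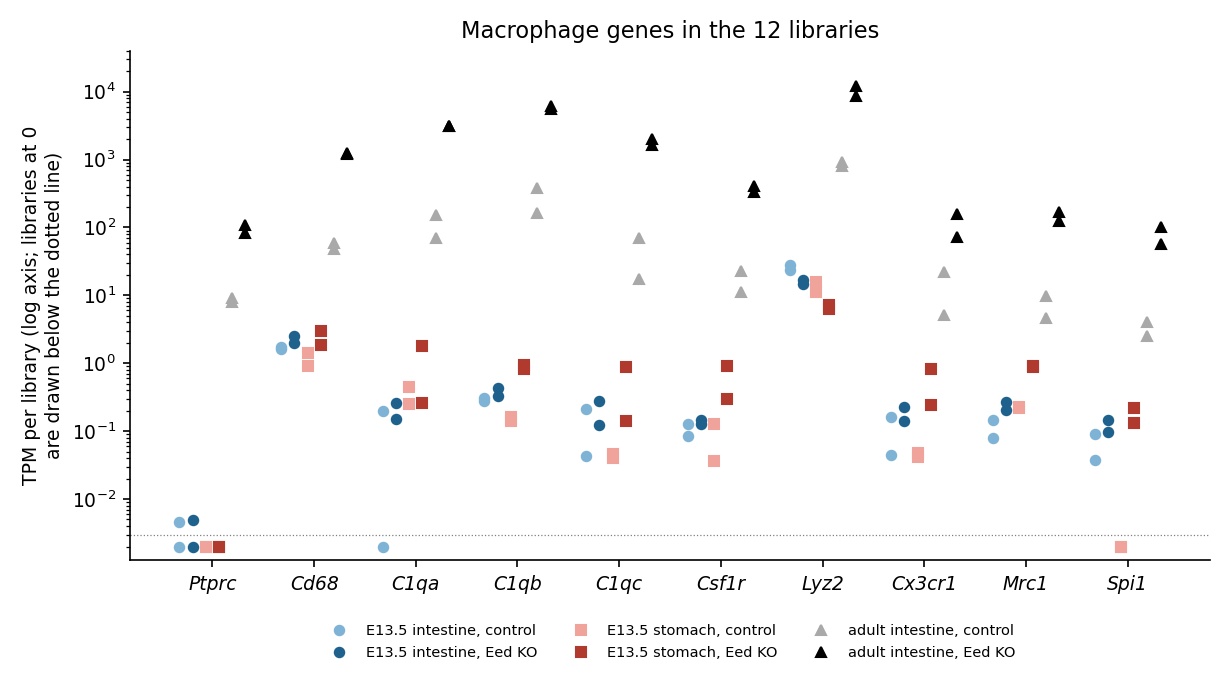
Level of each of the 10 macrophage genes in TPM (log axis) in each of the 12 libraries, with 1 point per library, coloured by group. Points below the dotted line had no count. For *Lyz2* the adult *Eed* KO libraries reached 12027 and 8596 TPM, against 804 and 924 TPM in the adult controls and 28.1 TPM in the highest embryonic library.

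In the adult comparison all 10 members passed the filter on low counts, and all 10 were called higher in *Eed* KO, where called means an adjusted p under 0.05 and an absolute log2 fold change above 1. Of the 15039 genes tested, 1856 were called higher (12.3%) and 1088 lower (7.23%), and with spike-in scaling the split was 1154 higher against 1321 lower. For 4860 genes (32.3%) both *Eed* KO libraries lay above both control libraries. The list was chosen on this contrast, so nothing is read from the members' count of 10. Their median log2 fold change was 4.98, against 0.00125 for all genes tested. Since the libraries are bulk, more cells of a type and more RNA per cell cannot be told apart. The same holds for fewer cells and less RNA per cell.

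*Spi1*, the transcription factor, had the lowest group mean of the members in adult control and in adult *Eed* KO libraries on the CPM scale. It was at 2.63 and 4.34 CPM in the control libraries and at 83.4 and 167 CPM in the *Eed* KO libraries. Both *Eed* KO libraries lay far above both controls, and *Eed* KO replicate 2 was the higher of the pair (log2 fold change 5.16, SE 0.44, or 35.7-fold). *Csf1r*, the growth factor receptor, was at 20.9 and 44.2 CPM in control and at 1090 and 984 CPM in *Eed* KO. The *Eed* KO libraries were close to each other, while the controls differed from each other more (4.99, SE 0.40, 31.9-fold). *Cx3cr1*, the fractalkine receptor, was at 7.39 and 32.7 CPM in control and at 322 and 166 CPM in *Eed* KO. It had the widest spread among the receptors and the smallest fold change of the 10 (3.60, SE 0.68, 12.2-fold). *Mrc1*, the mannose receptor, was at 11.4 and 25.0 CPM in control and at 589 and 483 CPM in *Eed* KO, without overlap (4.88, SE 0.41, 29.4-fold).

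*Ptprc* was at 64.3 and 57.2 CPM in control and at 1077 and 925 CPM in *Eed* KO. Its control libraries were nearly equal, and its fold change was among the smaller ones (4.04, SE 0.22, 16.5-fold). *Cd68* was at 23.1 and 29.1 CPM in control and at 830 and 952 CPM in *Eed* KO, with narrow spreads in both groups (5.10, SE 0.25, 34.2-fold). *Lyz2* was the most abundant member, at 391 and 463 CPM in control and at 8315 and 6614 CPM in *Eed* KO. Its fold change was 4.13 on the log2 scale (SE 0.24, 17.5-fold). By TPM it ranked 168 and 143 among all genes in the control libraries and 6 and 10 in the *Eed* KO libraries. *Lyz1*, which encodes the Paneth cell lysozyme and from which *Lyz2* reads may not be separable, moved in the same direction, from 573 and 510 TPM to 5715 and 2842 TPM.

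The 3 chains of C1q held the largest fold change of the list. *C1qa* was at 27.8 and 63.1 CPM in control and at 1797 and 2001 CPM in *Eed* KO (log2 fold change 5.38, SE 0.43, 41.8-fold). *C1qb* was at 68.9 and 161 CPM in control and at 3591 and 3643 CPM in *Eed* KO (4.97, SE 0.43, 31.4-fold). *C1qc* was at 12.7 and 54.0 CPM in control and at 1729 and 2340 CPM in *Eed* KO (5.93, SE 0.70, 60.9-fold). In each of the 3 genes control replicate 1 was the lower control, as it also was for every other member except *Ptprc*. Per length, the chains kept the same order in every adult library, B over A over C. The B chain took 65.5% and 62.6% of the summed C1q TPM in control and 55.7% and 51.6% in *Eed* KO, the A chain took 25.6% to 29.7% throughout, and the C chain took 6.82% and 11.8% in control and 15.1% and 18.7% in *Eed* KO. In *Eed* KO libraries *C1qb* ranked 13 and 14 and *C1qa* 32 and 35 among all genes by TPM.

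**Figure D2:**
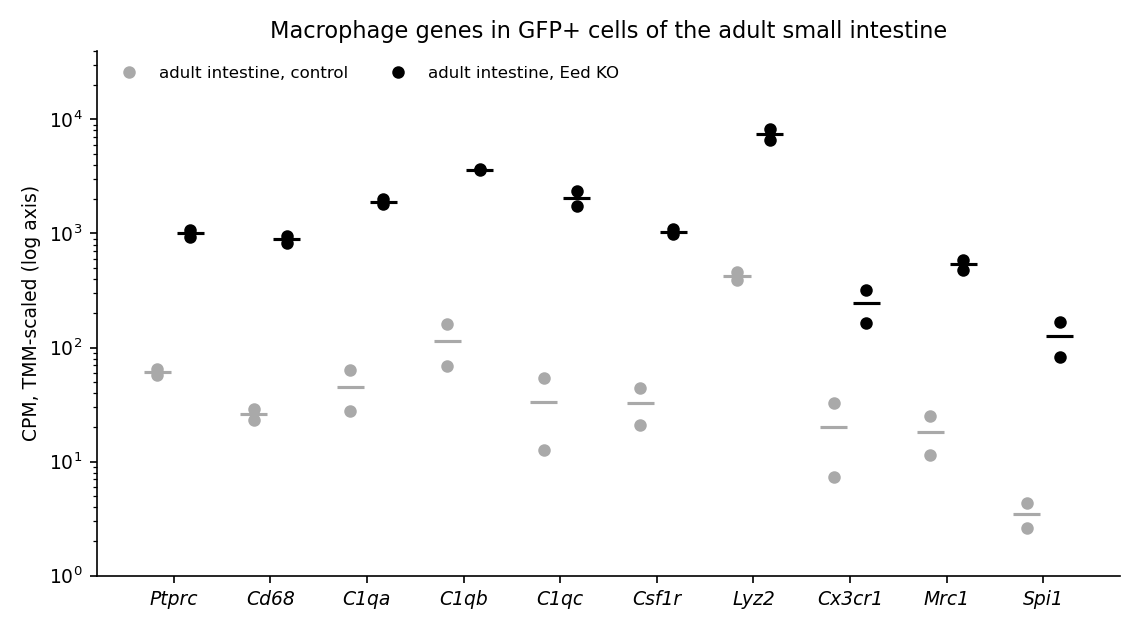
Level of the 10 macrophage genes in GFP+ cells of the adult small intestine, in CPM after TMM scaling (log axis), with points for the 2 control and the 2 *Eed* KO libraries and bars at the group means. For each gene both *Eed* KO points lie above both control points, from *Cx3cr1* (12.2-fold) to *C1qc* (60.9-fold).

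Summed over the 10 members, the level rose from 782 ± 214 CPM (SD, n = 2) in control to 18849 ± 812 CPM (SD, n = 2) in *Eed* KO, or 24.1-fold, and without *Lyz2* from 355 to 11385 CPM, or 32.1-fold. As a share of all gene counts the members made up 0.0755% and 0.109% of the control libraries and 1.69% and 1.49% of the *Eed* KO libraries. *Lyz2* alone took 62.1% and 49.6% of the control member counts, and 42.8% and 36.2% of those in *Eed* KO. Over the alternative settings the lowest log2 fold change of *C1qc* was 5.23, without control replicate 1, and its highest was 7.49, with a factor of unwanted variation estimated from the spike-ins. For *Cx3cr1* the lowest was 2.89, without control replicate 1, and the highest 5.45, with that factor.

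Other genes of macrophages and leukocytes moved with the members. The lists here and below were also chosen with earlier results of these data known. Their calls and adjusted p-values are thus a description. Of all genes tested in the adult comparison 12.3% were called higher and 7.23% lower. Of 20 other macrophage genes 19 were tested and 18 were called higher, none lower, with a median log2 fold change of 4.48, and their summed level went from 361 ± 124 to 9865 ± 163 CPM. The 4 most abundant were *Cd14*, the lipopolysaccharide co-receptor (73.9 ± 16.6 to 2054 ± 913 CPM, log2 fold change 4.80, SE 0.39, adjusted p = 0.00034), *Mpeg1*, which encodes the pore-forming perforin-2 (4.56, SE 0.40, adjusted p = 0.00047), *Emr1*, an adhesion receptor gene of mature macrophages (5.00, SE 0.56, adjusted p = 0.0013), and *Ms4a7*, a tetraspan membrane protein gene (5.28, SE 0.45, adjusted p = 0.00042). The exceptions were *Mertk*, the receptor for dying cells, at log2 fold change 0.88 (SE 0.25, adjusted p = 0.045), and *Vsig4*, which did not pass the filter. Both were picked out after their values were seen. Of 20 myeloid and pan-leukocyte genes 19 were called higher, with a median of 3.79 and a summed level of 909 ± 152 CPM in control against 15034 ± 320 CPM in *Eed* KO. They included the lysosomal protease *Ctss* (147 ± 39.5 to 4600 ± 167 CPM, 4.96, SE 0.27, adjusted p = 0.00012), the Fc receptor genes *Fcgr3* (4.64, SE 0.31, adjusted p = 0.00017) and *Fcer1g* (4.62, SE 0.26, adjusted p = 0.00012), and the actin-bundling gene *Lcp1* (3.83, SE 0.22, adjusted p = 0.00012). These adjusted p-values, and those of the next 3 paragraphs, come from the edgeR quasi-likelihood test with Benjamini-Hochberg adjustment over 15039 genes.

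Of the 8 transcription factors listed as acting with *Spi1*, 7 were tested and 6 were called higher, with a median log2 fold change of 1.61, well under the 5.16 of *Spi1* itself. *Maf* (1.27, SE 0.20, adjusted p = 0.0054) and *Klf4* (1.03, SE 0.30, adjusted p = 0.048), which fibroblasts also express, were called higher by smaller amounts. The *Maf* call was lost with spike-in scaling (0.88) and with the spike-in factor (1.26), and the *Klf4* call with both (0.65 and 0.47). The *Klf4* call was also lost with no filter (0.999), the replicate block (1.04), without control replicate 2 (0.74) and without *Eed* KO replicate 2 (0.68). *Irf8*, the partner of PU.1 in myeloid and dendritic cells, went from 165 ± 6.66 to 296 ± 13.2 CPM, below the fold threshold (0.84, SE 0.18, adjusted p = 0.017).

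Of 6 ligands and growth factors of macrophages 5 were tested, 2 were called lower and 1 higher. *Csf1*, which encodes the main ligand of the *Csf1r* product, fell from 208 ± 21.6 to 76.6 ± 17.2 CPM (SD, n = 2 each; log2 fold change −1.44, SE 0.23, adjusted p = 0.0052). *Il34*, the other ligand of that receptor, fell from 46.8 ± 2.15 to 21.7 ± 4.78 CPM (−1.10, SE 0.23, adjusted p = 0.015), a call that was lost without control replicate 1 (−1.06), without *Eed* KO replicate 1 (−0.92) and with the spike-in factor (−1.28). The *Csf1* call was kept under every alternative. *Cx3cl1*, the ligand of the *Cx3cr1* product, was low in both groups, at 4.54 ± 1.86 and 10.5 ± 7.34 CPM, and was not called (1.22, SE 0.58, adjusted p = 0.18). *Ccl2*, the chemokine that draws monocytes, rose from 71.8 ± 12.3 to 752 ± 307 CPM (3.39, SE 0.33, adjusted p = 0.00073).

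Of 11 complement genes 3 were called higher and 3 lower. The protease genes whose products bind C1q fell while the C1q chains rose, *C1ra* from 932 ± 1.61 to 392 ± 64.9 CPM (−1.25, SE 0.20, adjusted p = 0.0057) and *C1s1* from 1263 ± 85.9 to 604 ± 99.9 CPM (−1.06, SE 0.21, adjusted p = 0.011). The *C1s1* call was lost without control replicate 1 (log2 fold change −0.9998), without *Eed* KO replicate 2 (−0.91) and under both spike-in settings, and the *C1ra* call with the spike-in factor (−1.16). *C4b* fell as well (−1.56, SE 0.24, adjusted p = 0.0049), and *Serping1*, the inhibitor of these proteases, stayed under the fold threshold (−0.85, SE 0.19, adjusted p = 0.019). The genes called higher were *C3ar1* (5.22) and *C5ar1* (4.33), the anaphylatoxin receptors, and *Cfp* (4.98), which encodes properdin. *C3* was not called (0.35, adjusted p = 0.58). *C4b*, *C3ar1*, *C5ar1* and *Cfp* were named after their values were seen.

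Marker lists of the other cell types that a gut preparation could hold moved unequally. Mesenchymal genes were abundant in all 4 adult libraries, as the labels state, but 4 of 7 tested were called lower and none higher in *Eed* KO. Their summed level went from 26625 ± 2299 to 14145 ± 678 CPM. *Col3a1* (−1.60, SE 0.25, adjusted p = 0.0050) and *Col1a1* (−1.65, SE 0.29, adjusted p = 0.0076) fell, calls that were lost with the spike-in factor (−1.35 and −1.43), while *Dcn* (−0.50, SE 0.20, adjusted p = 0.12) and *Lum* (−0.91, SE 0.20, adjusted p = 0.018) were not called. *Pdgfrb*, the gene that drove Cre, was at 143 ± 27.1 CPM in the controls, at 91.0 ± 2.51 CPM in *Eed* KO, and was not called (−0.65, SE 0.21, adjusted p = 0.062). Among B and plasma cell genes 3 of 6 were called lower, led in level by *Igj* (2170 ± 140 to 499 ± 31.6 CPM, −2.12, adjusted p = 0.00054), and *Cd79b* was called higher (2.39, adjusted p = 0.00064). Of 6 T and NK cell genes *Cd4*, which some myeloid cells also express, was called higher (9.97 ± 5.62 to 251 ± 32.6 CPM, 4.65, adjusted p = 0.00052), and the T cell receptor genes *Cd3g* (1.24, adjusted p = 0.068) and *Trac* (0.10, adjusted p = 0.91) and the cytotoxic granule gene *Nkg7* (0.11, adjusted p = 0.90) were not.

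Dendritic cell genes were called higher in 4 of 6 cases, with *Itgax* at 4.44 (adjusted p = 0.00012), *Cd209a* at 3.79 (adjusted p = 0.0056) and *Ccr7* at 2.05 (adjusted p = 0.0045), whereas *Zbtb46*, which marks conventional dendritic cells, was not called (−0.21, adjusted p = 0.75). Of 5 granulocyte and mast cell genes tested, *Csf3r* (4.77, adjusted p = 0.00013) and *Siglecf* (2.75, adjusted p = 0.021) were called higher and *S100a8* lower (10.3 ± 12.6 to 0.359 ± 0.366 CPM, −4.72, adjusted p = 0.042), all with the edgeR test. The *S100a8* and *Siglecf* calls were each lost when single libraries were left out, *S100a8* falling to −1.89 without control replicate 1. *Cpa3*, the mast cell protease, was not called (0.90, adjusted p = 0.14). Endothelial genes were called higher in 3 of 8 cases, *Pecam1* among them (1.43, adjusted p = 0.0041), and *Esam* (0.71, adjusted p = 0.060), *Tek* (0.12, adjusted p = 0.78) and *Kdr* (0.62, adjusted p = 0.22) were not called. The *Pecam1* call was lost with spike-in scaling (1.02) and with the spike-in factor (1.19), and the *Cd209a* call with that factor (3.09). The summed endothelial level went from 127 ± 3.48 to 254 ± 67.0 CPM. Epithelial genes showed 1 called change in 7 tested, *Lyz1* (3.52, adjusted p = 0.00054), and *Defa24*, another Paneth cell gene, was not called (0.31, adjusted p = 0.52). *Krt8* (0.80, adjusted p = 0.20) and *Krt18* (0.90, adjusted p = 0.34) were not called either, and 1 erythroid gene passed the filter without a call, *Hba-a1* (1.64, adjusted p = 0.18). Several of these genes are shared between cell types, and the part of each type in the members' levels was not tested.

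**Figure D3:**
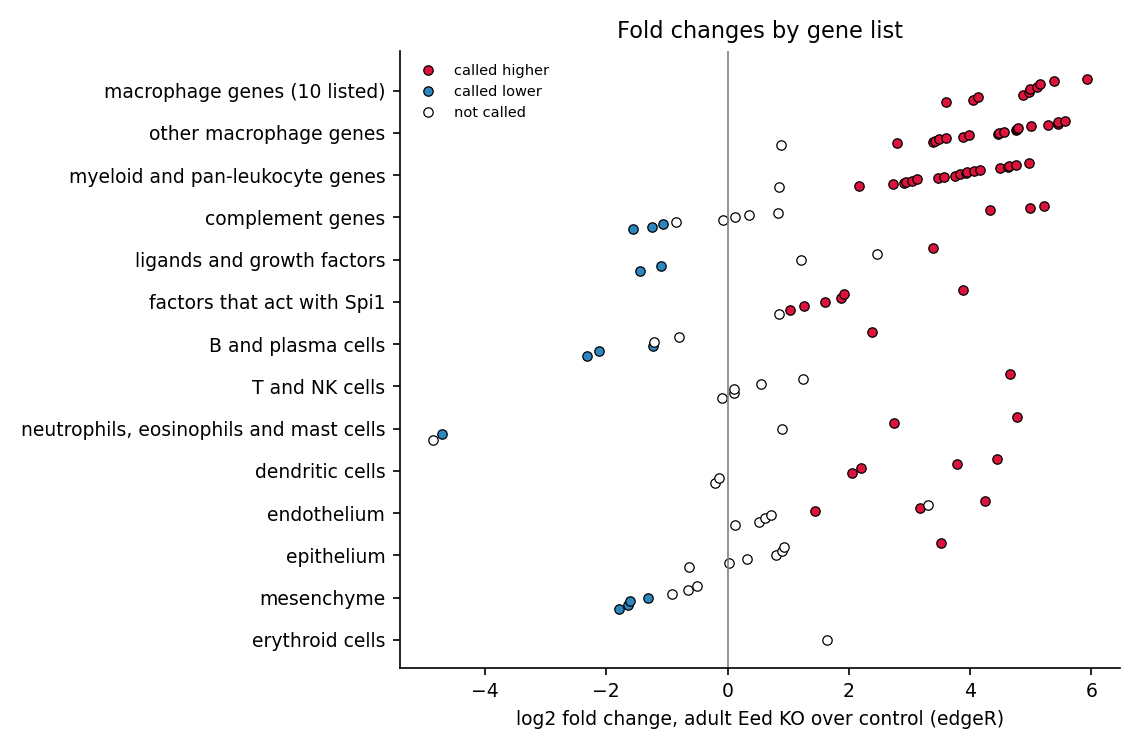
Log2 fold change of adult *Eed* KO over control (edgeR) for every tested gene of each list, with 1 point per gene, red for genes called higher, blue for genes called lower and white for genes not called. The 10 listed macrophage genes lie between 3.60 and 5.93, the other macrophage genes have a median of 4.48, and 4 of 7 mesenchymal genes lie in blue below 0.

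Mesenchymal genes were abundant in the embryonic libraries too, with group means of 4637 to 6181 CPM for *Col1a1* and 19.9 to 33.9 CPM for *Nkx3-2*, the driver of Cre. The members, apart from *Lyz2*, were close to the detection limit, and together they made up 0.000621% to 0.00132% of the gene counts. *Ptprc* had 2 counts over all 8 embryonic libraries, 1 in control intestine replicate 1 and 1 in *Eed* KO intestine replicate 2. *Spi1* had 3 and 1 counts in control intestine, 5 and 3 in *Eed* KO intestine, 0 and 0 in control stomach and 7 and 4 in *Eed* KO stomach. Both genes were thus at or near the limit that a count of 0 allows in every embryonic group. *C1qb* had 2 to 6 counts in every library of 3 groups, and 12 and 10 in *Eed* KO stomach. *C1qa* had 0 to 6 counts outside *Eed* KO stomach, where it had 22 and 3, and *C1qc* had 1 to 6, with 20 and 3 there. For these 5 genes the filter on low counts was not passed, so 5 of 10 members entered the embryonic test. *Csf1r* and *Cx3cr1* passed through *Eed* KO stomach, where they were highest, and 3 members passed when intestine, or the control organs, were filtered alone.

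In *Eed* KO stomach the receptors had more counts than in control stomach. *Csf1r* had 2 and 8 counts in control stomach, against 52 and 16 in *Eed* KO stomach (log2 fold change 2.74, SE 0.72). *Cx3cr1* had 2 and 2 in control stomach, against 36 and 10 in *Eed* KO stomach (3.43, SE 0.88). In both genes *Eed* KO replicate 1 held most of the counts, and neither gene was called, whereas DESeq2, no filter and spike-in scaling each called both, as did leaving out *Eed* KO replicate 2. *Mrc1* was more even, with 16 and 19 control counts against 66 and 64 *Eed* KO counts, or 0.464 and 0.484 against 1.77 and 1.76 CPM, and was called higher (1.89, SE 0.32). *Cd68* was at 13 and 23 against 45 and 26 counts and was not called (0.98, SE 0.38). *Lyz2* went the other way, from 6.46 and 4.72 CPM in control to 2.49 and 2.80 CPM in *Eed* KO, and was called lower (−1.08, SE 0.21), but under spike-in scaling, which shifts the median log2 fold change of all genes by 2.39, its value was 1.36 and not called. Of all 16218 genes tested 5.65% were called in this comparison, in either direction, and 2 of the 5 members tested. The members were chosen on these data, and *Csf1r* and *Cx3cr1* passed the filter through *Eed* KO stomach. Nothing is therefore read from the members' counts of calls in the embryonic comparisons. All genes split into 785 higher and 131 lower, or 307 and 184 with the spike-in factor and 15419 and 19 with spike-in scaling. Both member calls were lost without control stomach replicate 1 and without *Eed* KO stomach replicate 1, and 1 was left without control stomach replicate 2. Without *Eed* KO stomach replicate 2 the calls were on *Csf1r* and *Cx3cr1* instead.

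**Figure D4:**
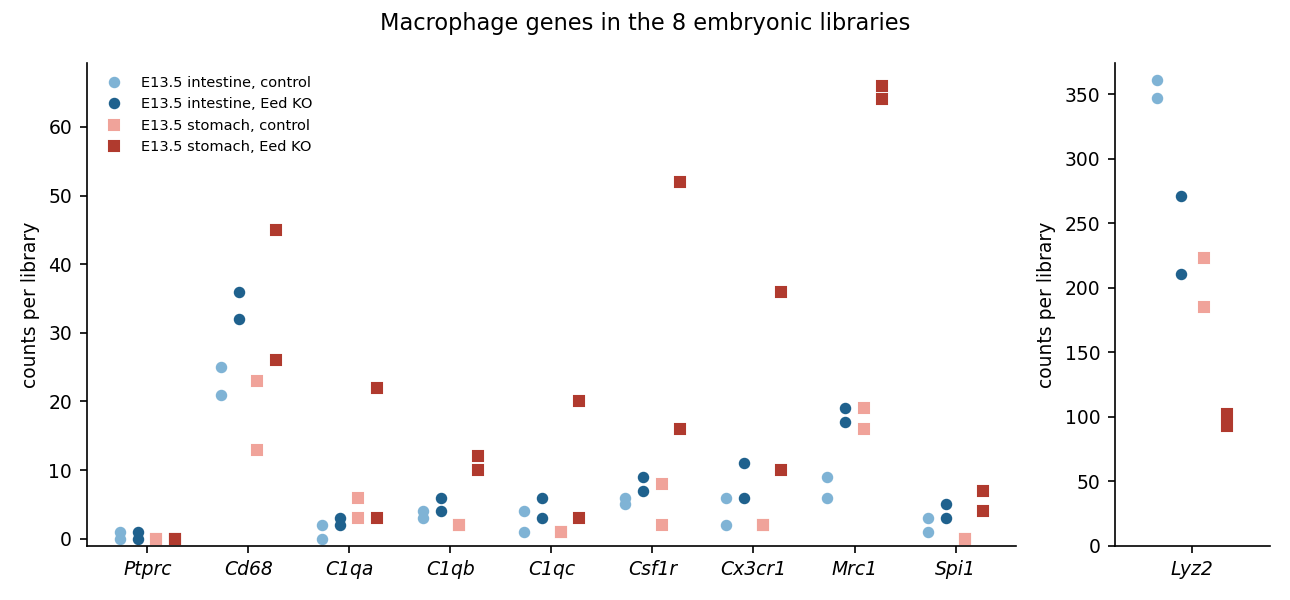
Counts of the macrophage genes in the 8 embryonic libraries, with 1 point per library and *Lyz2* on its own axis. Outside *Lyz2* no library exceeded 66 counts for any member, and the highest points of *Csf1r* (52) and *Cx3cr1* (36) belong to *Eed* KO stomach replicate 1.

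Endothelial genes moved unevenly in the same stomach comparison, with 3 of 8 called higher. These were *Cdh5* at 3.70 (SE 0.40, adjusted p = 0.0025), *Pecam1* at 2.77 (SE 0.42, adjusted p = 0.0094) and *Prox1* at 1.62 (SE 0.25, adjusted p = 0.010). The most abundant of the list, *Flt4*, *Kdr*, *Esam* and *Tek*, were not called. The summed endothelial level overlapped between genotypes, at 45.4 and 57.1 CPM in control and 47.2 and 82.2 CPM in *Eed* KO stomach. Of 7 other macrophage genes tested 2 were called higher, *Mpeg1* (0.548 to 1.65 CPM, 1.59, SE 0.30, adjusted p = 0.020) and *Stab1* (0.511 to 2.52 CPM, 2.27, SE 0.48, adjusted p = 0.030). *Stab1* is also expressed by endothelium. Of 8 myeloid and pan-leukocyte genes tested *Ptpn6* was called (0.316 to 0.974 CPM, 1.62, SE 0.37, adjusted p = 0.038). These 3 calls were fragile, with 0 or 1 of them left whichever stomach library was left out. The *Pecam1* call was lost without either control replicate, the *Prox1* call in 3 of the 4 such leave-outs, and both with the spike-in factor. The summed level of the 20 other macrophage genes was 35.1 to 42.7 CPM in control and 48.8 to 51.9 CPM in *Eed* KO stomach. Among the factors that act with *Spi1*, 4 of 8 were called higher, *Cebpa* (1.67, adjusted p = 0.0028), *Runx1* (2.29, adjusted p = 0.0037), *Klf4* (1.41, adjusted p = 0.0023) and *Maf* (1.06, adjusted p = 0.0087), of which *Maf* was at 106 and 221 CPM, far above any member. The *Maf* call was lost with the spike-in factor (0.68), without either control replicate and without *Eed* KO replicate 2. *Csf1* was at 27.4 and 31.4 CPM and was not called (0.20, adjusted p = 0.59, edgeR, over 16218 genes here and above).

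In embryonic intestine 0 of the 5 members tested were called in the edgeR test, against 2.61% of all genes, and 2 had an unadjusted p under 0.05. All genes split into 386 higher and 37 lower, or 211 and 73 with the spike-in factor. DESeq2 also called 0, and spike-in scaling called 3, where it called 13664 of all genes higher and 24 lower. *Lyz2* had control levels of 10.1 and 11.7 CPM and *Eed* KO levels of 7.15 and 6.02 CPM, lower in both *Eed* KO libraries (−0.73, SE 0.20). With spike-in scaling, which shifts that median by 1.85 here, its value was 1.08. *Mrc1* had 6 and 9 control counts against 17 and 19 *Eed* KO counts (1.08, SE 0.39). *Csf1r* had 5 and 6 against 9 and 7 counts, *Cx3cr1* 2 and 6 against 11 and 6, and *Cd68* 25 and 21 against 32 and 36, with fold changes of 0.37 (SE 0.83), 0.88 (SE 0.88) and 0.41 (SE 0.38). None of the 7 other macrophage and 8 myeloid genes tested was called, *Stab1* being nearest (2.29, adjusted p = 0.051), while *Cdh5* (2.80, adjusted p = 0.0097) and *Esam* (1.82, adjusted p = 0.028) of the endothelial list were called higher by edgeR. The *Cdh5* call was lost without either control library, and the *Esam* call with the spike-in factor, with only the compared groups, without control replicate 1 and without either *Eed* KO library.

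Control intestine and control stomach were compared as well. In that comparison 5.07% of all genes and 0 of 5 members were called in either direction by edgeR, 2 members having an unadjusted p under 0.05. All genes split into 273 higher and 549 lower in intestine, or 70 and 85 with spike-in scaling. DESeq2 also called 0. *Lyz2* was higher in intestine, close to the fold threshold (0.97, SE 0.20), and *Mrc1* lower (−1.02, SE 0.39). Whether the effect of *Eed* loss depended on the organ was tested directly, at an adjusted p under 0.2. Of all genes 0.462% were called (31 positive and 44 negative, or 0 and 20 with spike-in scaling) and 0 of 5 members, none with an unadjusted p under 0.05, and DESeq2 called 0. The intestine effect minus the stomach effect was 0.35 (SE 0.29) for *Lyz2*, −0.80 (SE 0.52) for *Mrc1* and −0.58 (SE 0.54) for *Cd68*. It was larger but imprecise for *Csf1r* (−2.38, SE 1.13) and *Cx3cr1* (−2.55, SE 1.34).

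The order of levels in the embryo differed by gene. Per length, *Lyz2* was highest in control intestine (23.6 and 28.1 TPM), then in *Eed* KO intestine (16.7 and 14.8) and control stomach (15.5 and 11.3), whose ranges overlapped, and lowest in *Eed* KO stomach (6.19 and 7.23). *Mrc1* and *Csf1r* were highest in *Eed* KO stomach, without overlap with the next group. *Cx3cr1* was highest there too, but its lower library (10 counts) was level with the higher *Eed* KO intestine library (11 counts), above it by TPM (0.240 against 0.229) and below it by CPM (0.274 against 0.290). Below that, *Mrc1* in *Eed* KO intestine overlapped control stomach, and *Csf1r* in control intestine overlapped control stomach. The summed members, to which *Lyz2* gave 26.3% to 88.5% of embryonic member counts, were at 12.4 ± 1.39 CPM in control intestine, 8.92 ± 0.670 in *Eed* KO intestine, 6.93 ± 0.935 in control stomach and 7.998 ± 2.08 in *Eed* KO stomach (SD, n = 2 each). Without *Lyz2* they were at 1.54, 2.33, 1.34 and 5.35 CPM in that order. The last value averaged 6.97 and 3.73 CPM of its 2 libraries.

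ATAC-seq marks open chromatin, and the peak lists hold the embryonic samples with replicates pooled, so they carry no replicate error. *Lyz2* had a peak across its start in all 4 lists, with a fold enrichment of 7.67 in control intestine, 7.02 in *Eed* KO intestine, 7.49 in control stomach and 6.38 in *Eed* KO stomach, against list medians of 3.49 to 3.81. It was also the member with the most embryonic counts. *C1qc* had a peak 822 to 981 bp upstream of its start in all 4 lists, outside the bases printed above. Its fold enrichment was 4.70 and 4.90 in the control and 6.09 and 6.60 in the *Eed* KO lists of intestine and stomach. *C1qa* had 3.36 in control intestine, 4.52 in control stomach and 3.27 in *Eed* KO stomach, and was without a listed peak in *Eed* KO intestine. *Mrc1* had a weak peak in each list, of 2.49 to 3.18, with a −log10 q of 1.31 in control intestine and 2.23 to 3.25 in the other lists.

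*Csf1r*, which lies at chr18:61105572-61132149 on the plus strand, had a peak of 3.37 in control stomach and 2.68 in *Eed* KO stomach within 1000 bp of its start. Its nearest intestine peaks lay just beyond that limit, at 1248 bp in control (3.89) and 1334 bp in *Eed* KO (2.94). Within 1000 bp, *C1qb* (2.55) and *Spi1* (2.21) had a peak in *Eed* KO intestine alone, and *Cd68* (2.21) in *Eed* KO stomach alone. The lists start near a fold enrichment of 2 (2.00), so by fold enrichment these single entries sit at the edge of what was listed. Their −log10 q was 1.53 for *C1qb*, 1.34 for *Spi1* and 4.38 for *Cd68*. At a −log10 q of at least 2 the *C1qb* and *Spi1* entries dropped out and that of *Cd68* stayed. Farther out, *Spi1* had a peak at 3192 to 3293 bp in all 4 lists (4.32 to 4.65). *Cd68* likewise had a peak at 3084 to 3150 bp in all 4 (8.65 to 9.78). *Ptprc* and *Cx3cr1* had no listed peak within 1000 bp of the start in any of the 4 lists. In all, 4, 5, 5 and 6 of the 10 members had a peak within 1000 bp in control intestine, *Eed* KO intestine, control stomach and *Eed* KO stomach, where 43.8%, 45.8%, 44.6% and 45.6% of 43276 genes had one. The members' shares were close to these at 1000 bp, and above those of all genes with a window of 5000 bp. Of 16216 genes tested in the embryo and placed in the annotation, 14243, 14420, 14313 and 14424 had a peak within 1000 bp. Within 5000 bp, 15157 to 15314 of them had one. The members' shares were below those of these tested genes, which did not include all members.

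**Figure D5:**
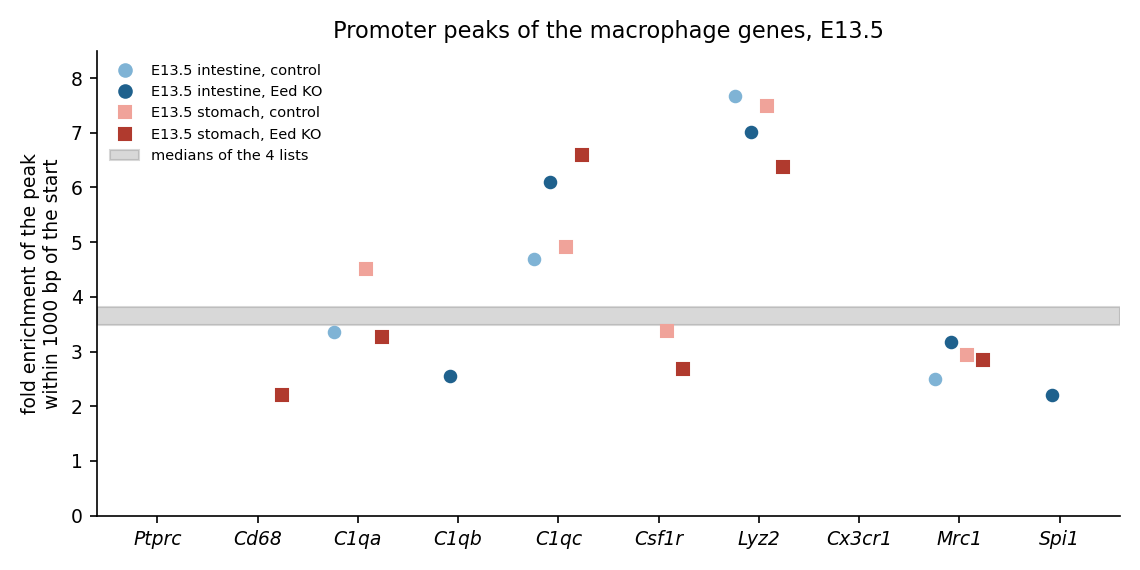
Fold enrichment of the ATAC-seq peak within 1000 bp of each macrophage gene's start in the 4 embryonic peak lists, with 1 point per list and gene and no point where no peak was listed. The grey band spans the list medians, 3.49 to 3.81. *Lyz2* and *C1qc* lie above it in all 4 lists, and *Ptprc* and *Cx3cr1* have no points.

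The genes whose profile was most like that of the summed members over the 12 libraries, by Pearson's r of log2(CPM + 1) among 14835 genes with a mean of at least 1 CPM, were *P2rx4* (0.9984), *Fcer1g* (0.9982), *Ctss* (0.9980), *Psap* (0.9980) and *Npc2* (0.9977). *Ctss*, *Psap* and *Npc2* encode lysosomal proteins, *P2rx4* an ATP-gated channel and *Fcer1g* a signalling chain of Fc receptors. The libraries fall into separate clusters, embryonic, adult control and adult *Eed* KO, and share depth and kit within age, so these values describe steps between clusters. Over the 8 embryonic libraries, among 13386 genes, the nearest were *Aoc2* (0.9459), *Neurl2* (0.9424), *Pqbp1* (0.9414), *Rrp7a* (0.9325) and *Cdhr4* (0.9214). Their levels moved little, *Pqbp1* between 58.5 and 65.2 CPM and *Rrp7a* between 53.9 and 58.9 CPM.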

How the data were processed

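RNA-seq and ATAC-seq were done on FACS-sorted GFP+ cells. Embryonic RNA libraries were stranded and poly(A)-selected, adult libraries were unstranded, from a kit for low input, and SIRV Set 3 spike-ins were added. Per the methods and file headers, the authors trimmed reads (Trimmomatic 0.32), aligned them with STAR 2.5.1b to mm10, and deposited raw counts per gene name from featureCounts on GENCODE vM4, the adult files with version 1.5.0 in the header. Peak lists deposited by the authors came from MACS2 2.1.2 on pooled replicates and give a fold enrichment (a ratio to local background) and a −log10 q-value for each peak.

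Counts were analysed as deposited in edgeR 4.0.16 (R 4.3.3) with TMM scaling, filterByExpr, the quasi-likelihood F-test and Benjamini-Hochberg adjustment over all genes tested. The 8 embryonic libraries were fitted together (16218 genes) and the 4 adult libraries together (15039 genes). The SE is the absolute log2 fold change over the square root of F. Called means an adjusted p under 0.05 (0.2 for organ dependence) and an absolute log2 fold change above 1. TPM used merged exon lengths. The members and all lists were chosen with earlier results of these data known. Named genes were the members, *Eed*, the ligands and C1q proteases, the up to 4 most abundant genes of each list in a comparison, the 5 most correlated genes, and others where the text says so or where they are the ones called. Some genes the rule names are not reported here. Alternatives were DESeq2 1.42.0, RLE factors, spike-in scaling, a spike-in factor of unwanted variation (RUV), no filter, the replicate number as a block, only the compared groups, each library left out, other peak windows and stricter q-values. The test was checked on simulated counts, with changes placed only in genes of higher counts. That check does not cover the low embryonic counts of the members other than *Lyz2*. Same-numbered libraries were not treated as pairs.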

Additional observations from a re-analysis of the deposited data

Results flagged for a closer look

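*Lyz2* was lower in both *Eed* KO libraries than in both controls in E13.5 intestine (log2 fold change −0.73) and higher in both in adult intestine (4.13). *C1s1*, a C1q partner protease, showed the opposite pattern, higher in both *Eed* KO libraries in E13.5 intestine (1.11) and lower in both in the adult (−1.06). Neither embryonic change was called in the main fit. With spike-in scaling the *Lyz2* value in E13.5 intestine was positive, as given above. *C1s1* was called there with DESeq2, spike-in scaling, no filter and the replicate block. The difference between embryo and adult was not tested for either gene, since the ages were fitted separately and differ in kit and sort.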

How the results depend on the processing

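In the adult comparison other macrophage and leukocyte genes called numbered 37 and 34 (RUV), and the members' summed level in *Eed* KO moved from 18849 to 15903 CPM without TMM. In E13.5 stomach, members called went from 2 to 4 with DESeq2, spike-in scaling, no filter and the replicate block (*Csf1r*, *Cx3cr1* and *Mrc1* in each, with *Lyz2* or, under spike-in scaling, *Cd68*), and to 1, *Cx3cr1*, with the spike-in RUV factor. Leaving out 1 library gave 0 to 2. All-gene calls in stomach (785 higher, 131 lower) rose as well, to 902 and 164 with DESeq2. They were 1070 and 198 with no filter, where 25364 genes were tested, and 1024 and 182 with the replicate block. Other macrophage and leukocyte genes called there went from 3 to 13 (spike-in scaling), 0 (RUV) and 1 (only the compared groups), and to 0 to 1 with 1 library left out. *Lyz2* changed sign in stomach with spike-in scaling (1.36), which moved the median of all genes by 2.39. In E13.5 intestine, members called went from 0 to 3 with spike-in scaling, and other macrophage and leukocyte genes from 0 to 9 with it and to 1 with DESeq2, no filter, the replicate block and only the compared groups. Between control organs, members called went from 0 to 1 (RUV), and 0 to 1 with 1 library left out, and the other genes from 3 to 0 (spike-in scaling), and 0 to 3 with 1 library left out. For organ dependence the other genes went from 0 to 1 with DESeq2, no filter and either replicate block. Members with a peak went to 8, 9 and 8 (control intestine, *Eed* KO intestine, control stomach) with a 5000 bp window (all genes 57.8%, 61.0% and 59.6%), to 3 in *Eed* KO intestine at −log10 q of at least 2 (44.0%), and to 2 there and 3 in control stomach and in *Eed* KO stomach at 5 (40.2%, 39.3% and 41.0%). Over all genes, the calls in E13.5 intestine (386 higher, 37 lower) went to 628 and 57 with DESeq2, 734 and 66 with no filter, 217 and 27 with only the compared groups and 13664 and 24 with spike-in scaling, those in stomach (785, 131) to 307 and 184 with RUV and 15419 and 19 with spike-in scaling, those between control organs (273, 549) to 70 and 85 with spike-in scaling, those for organ dependence (31, 44) to 99 and 108 with DESeq2, 91 and 89 with RUV, 117 and 120 with no filter and 0 and 20 with spike-in scaling, and the adult calls (1856, 1088) to 971 and 406 with RUV. Leaving out 1 library gave 60 to 338 higher in intestine and 282 to 576 in stomach. The causes were not tested. Low counts limit the embryonic values, where 5 of 10 members did not pass the filter, although these libraries were deeper than the adult ones.

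Same-numbered libraries correlated in their deviations at 0.392 (control organs), 0.778 (*Eed* KO organs), 0.211 and 0.149 (genotypes within intestine and stomach) and −0.0794 (adult genotypes), and the labels tie no number to an animal or day. With the replicate block the all-gene calls were 575 higher and 56 lower in E13.5 intestine (386 and 37 without) and 1024 and 182 in stomach (785 and 131 without). For organ dependence it gave 83 and 104, or 171 and 179 with the number taken as a shared embryo.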
